A study of Mus musculus with 12 samples.

Results

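Transcripts of 7 subunits of the GABA-A receptor were followed through the mouse hippocampus: the alpha subunits Gabra2, Gabra3, Gabra4 and Gabra5, the beta subunits Gabrb1 and Gabrb2, and the delta subunit Gabrd. They were taken by gene symbol from the TPM tables, which list 52636 genes, and all 7 were found once in both tables and passed the filter on low values, a mean level of 1 TPM or more. Each of the 12 libraries was made from the hippocampus of 1 mouse, wild-type, of strain C57BL6/J and 18 weeks old. The study grouped the mice by extinction level. Extinction is the fading of a learned response once its cue no longer foretells the outcome. There were 3 low-extinction males, 3 high-extinction males, 3 low-extinction females and 3 high-extinction females, all of the same strain and genotype, and no drug or transgene is named in the labels. The comparisons asked whether subunit transcripts depended on extinction level in each sex, on average over the sexes, and by a different amount in the 2 sexes.

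GABA-A receptors are chloride channels opened by GABA, the main inhibitory transmitter of the forebrain, and each is a ring of subunits drawn from several families. Alpha and beta subunits together form the GABA binding sites. The remaining position is usually held by a gamma subunit in receptors at synapses, and a delta subunit can take its place in receptors outside synapses, which carry a slow tonic inhibition. In the hippocampus the alpha5 subunit is known for tonic inhibition of pyramidal cells, and alpha4 with delta for tonic inhibition of dentate granule cells, where neurosteroids enhance it. Mice of the C57BL/6J strain carry an intronic deletion in Gabra2 that lowers its expression.

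Gabra2, Gabra4 and Gabrb1 lie close together on chromosome 5 of GRCm38 (GENCODE M21 annotation). Gabra2 (ENSMUSG00000000560.9) occupies 70957597 to 71095849 on the minus strand, Gabra4 (ENSMUSG00000029211.11) 71569749 to 71658308 on the minus strand, and Gabrb1 (ENSMUSG00000029212.11) 71658113 to 72149037 on the plus strand. Gabra4 and Gabrb1 stand head to head, and their annotated 5′ ends overlap by 196 bases on opposite strands. The sources used here do not say if strand entered the counting, so reads in that overlap may not be told apart. Gabra3 (ENSMUSG00000031343.13) lies on chromosome X from 72432681 to 72656848, minus strand, and Gabra5 (ENSMUSG00000055078.7) on chromosome 7 from 57407672 to 57510059, minus strand, where it overlaps 2 annotated genes on the opposite strand. Gabrb2 (ENSMUSG00000007653.12) lies on chromosome 11 from 42419757 to 42629028, plus strand, and Gabrd (ENSMUSG00000029054.8) on chromosome 4 from 155384980 to 155398112, minus strand. The last 2 overlap no other annotated gene.

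The 250 bases before the RefSeq starts of the 3 chromosome 5 neighbours (GRCm38.p6) are shown 5′ to 3′ on each gene's own strand, because the levels of these neighbours are compared with each other over the libraries. They are chr5:71095850-71096099 (minus) for Gabra2, chr5:71658309-71658558 (minus) for Gabra4 and chr5:71657671-71657920 (plus) for the first of the 2 starts listed for Gabrb1. Capitals mark CG dinucleotides, the sites of DNA methylation.
Gabra2: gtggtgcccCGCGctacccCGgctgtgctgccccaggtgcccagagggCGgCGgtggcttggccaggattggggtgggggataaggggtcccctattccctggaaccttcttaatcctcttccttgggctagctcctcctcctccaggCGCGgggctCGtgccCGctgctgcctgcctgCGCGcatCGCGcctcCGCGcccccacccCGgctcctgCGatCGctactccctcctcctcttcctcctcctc
Gabra4: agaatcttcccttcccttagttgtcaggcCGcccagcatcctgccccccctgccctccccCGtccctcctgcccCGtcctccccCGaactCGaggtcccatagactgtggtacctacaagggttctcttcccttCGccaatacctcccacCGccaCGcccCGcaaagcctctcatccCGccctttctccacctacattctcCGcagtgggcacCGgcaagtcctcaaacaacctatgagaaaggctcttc
Gabrb1: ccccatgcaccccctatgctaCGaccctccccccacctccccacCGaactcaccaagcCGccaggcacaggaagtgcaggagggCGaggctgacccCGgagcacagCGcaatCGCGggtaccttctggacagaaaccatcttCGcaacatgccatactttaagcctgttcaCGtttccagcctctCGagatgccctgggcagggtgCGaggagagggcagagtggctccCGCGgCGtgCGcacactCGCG
Gabra2 and Gabrb1 have 18 CG dinucleotides each in these windows, more than 78.3% of the 32851 windows in the table, and Gabra4 has 12, more than 66.5% of them. Windows were matched by symbol for 6 of the 7 genes, 10 windows in all, and both windows of Gabra3 hold 0. The activity-related motifs GCGTGGGCG and GCGGGGGCG (bound by EGR factors) and TGACGTCA (bound by CREB), with the core TGACG that lies within TGACGTCA, were searched on both strands. None of them occurs in any of the 10 windows, while 0.536%, 2.57%, 1.55% and 17.8% of all windows hold them. These are matches of letters in the windows only.

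Depth per library is unknown, since TPM keeps no record of it, so the spread between mice sets the precision here. Each library had 18170 to 19062 genes at 1 TPM or more, and no libraries were identical. Ribosomal RNA-derived transcripts took 4.44% to 15.01% of the TPM, and TPM of all other genes moves against that share. Markers of the hippocampal subfields were all detected: the summed level was 255 to 325 TPM for 8 dentate granule cell markers, 260 to 343 TPM for 6 CA1 markers and 166 to 243 TPM for 6 CA3 markers. The 8 choroid plexus markers summed to between 22.8 and 3472 TPM over the libraries. In bulk tissue, fewer cells of a type and less RNA per cell cannot be told apart.

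The transcript of the alpha5 subunit was the most abundant of the 7 and that of delta the least, at both extinction levels and in both sexes. TPM is corrected for transcript length, so levels can be set side by side between genes. Over the 12 libraries Gabra5 averaged 133 ± 17.5 TPM (SD), and its lowest library, at 108 TPM, lay above the highest library of each of the other 6. Gabrb2 followed at 75.1 ± 6.72 TPM. Gabra4 at 59.0 ± 4.33, Gabra2 at 58.2 ± 13.8 and Gabrb1 at 55.4 ± 5.73 TPM overlapped in their ranges over the libraries. Within libraries the ratio of Gabra4 to Gabrb1 ran from 0.913 to 1.25. It was below 1 only in replicate 1 of the high-extinction males. Gabra3 averaged 38.2 ± 4.02 TPM and Gabrd 18.8 ± 2.72 TPM (SD, n = 12 for each gene), and the highest Gabrd library, at 25.6 TPM, lay below the lowest library of every other subunit.

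**Figure D1:**
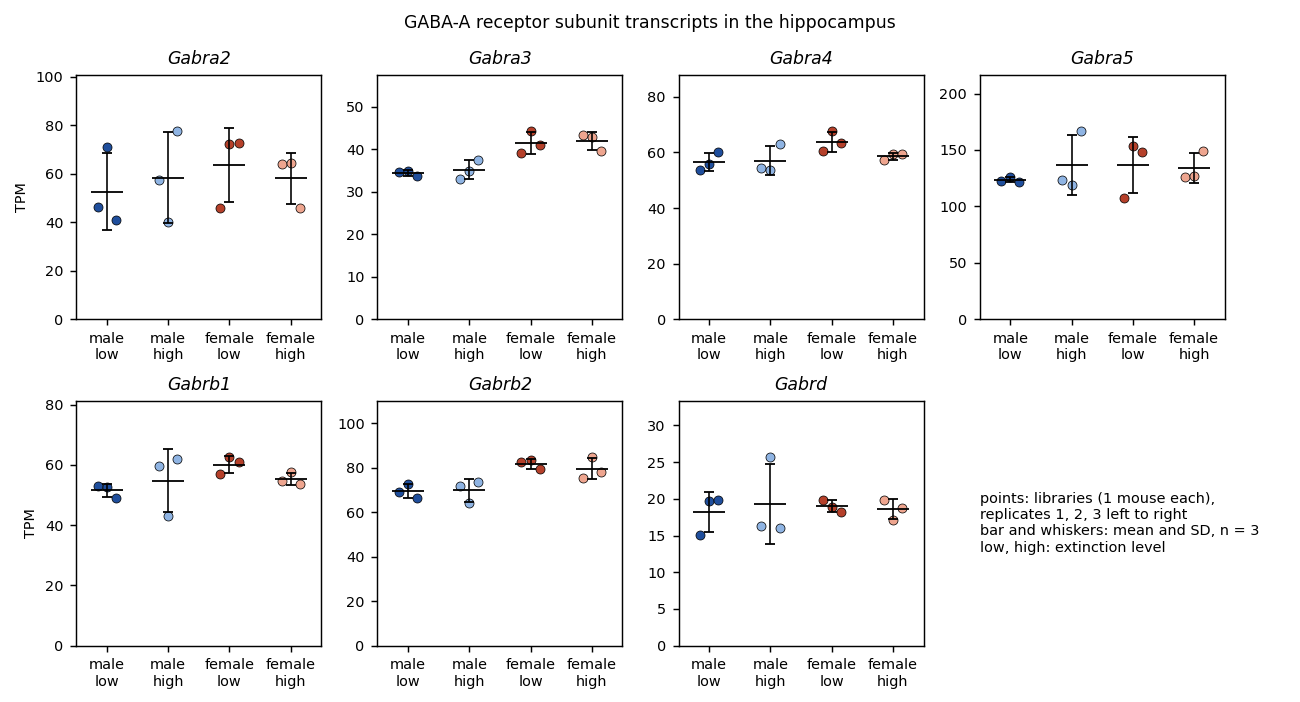
TPM of each subunit transcript (linear axes from 0, a scale per panel) in each of the 12 libraries, by sex and extinction level, with mean and SD of 3 mice. Low and high extinction overlap in every panel and sex except Gabra4 in females, and the points of Gabra2 spread more widely than those of Gabra3, Gabra4 and Gabrb2.

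The 7 transcripts together made up 394, 433 and 392 TPM in low-extinction males, against 417, 380 and 496 TPM in high-extinction males. In females they made up 413, 503 and 484 TPM at low extinction, against 440, 453 and 445 TPM at high extinction. The low and high ranges overlapped in both sexes. The mean difference, low minus high, was -24.8 TPM in males, 7.89 TPM without replicate 3 of the high-extinction males, and 20.2 TPM in females. The female difference was 2.06 TPM without replicate 2 of the low-extinction females, 11.6 TPM without their replicate 3 and 46.9 TPM without their replicate 1, and it turned to -2.69 TPM with size factors. The share of Gabra5 in the sum overlapped among all 4 groups. It made up 30.4% ± 1.13 in low-extinction males, 31.5% ± 1.96 in high-extinction males, 29.1% ± 2.58 in low-extinction females and 30.1% ± 3.07 in high-extinction females (SD, n = 3 each). The ratio of Gabrd to Gabra4, subunits that join in extrasynaptic receptors of the dentate gyrus, was 0.322 ± 0.0369 in low-extinction males and 0.344 ± 0.119 in high-extinction males (SD, n = 3 each). It was 0.299 ± 0.0262 in low-extinction females and 0.317 ± 0.0295 in high-extinction females (SD, n = 3 each).

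None of the 7 subunit transcripts passed the test for a difference between low and high extinction in either sex. Changes are low minus high extinction, as log2(TPM + 1) differences tested with limma, with Benjamini-Hochberg adjustment over all genes at 0.05. In males 0 of 7 passed, where 0% of 18303 genes did, and in females 0 of 7, where 0.0107% of 18668 genes did (2 genes). At an unadjusted limma p under 0.05 the counts were again 0 of 7 in both sexes, beside 6.29% of all genes in males and 8.83% in females. The smallest limma adjusted p of a subunit was 0.958 in males and 0.616 in females. The authors' deposited table of DESeq2 results on counts also called 0 of 7 in each sex, adjusted or at an unadjusted p under 0.05. It called 0.504% of genes in males and 0.857% in females by adjusted p, and 4.88% and 5.29% of them by unadjusted p.

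Gabra2, the alpha subunit of many synapses on pyramidal cell bodies and axon initial segments, varied most between mice of one group. It lay at 46.3, 70.9 and 40.8 TPM in low-extinction males, against 57.6, 39.96 and 77.6 TPM in high-extinction males. Females with low extinction had 46.0, 72.4 and 72.7 TPM, against 64.0, 64.5 and 45.9 TPM in females with high extinction. Each of the 4 groups holds at least 1 library under 50 TPM and 1 above it, and low and high extinction overlap in both sexes. The change was -0.14 in males (95% interval -0.78 to 0.50) and 0.12 in females (-0.38 to 0.61). On counts Gabra2 was not the most variable. The largest standard error in the authors' deposited table was that of Gabrd, 0.15 in males and 0.09 in females, beside 0.10 and 0.06 for Gabra2.

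Gabra3, an X-linked alpha subunit best known from monoaminergic and thalamic reticular neurons, differed little between mice. It lay at 34.6, 34.9 and 33.6 TPM in low-extinction males, against 32.96, 34.97 and 37.4 TPM in high-extinction males. Females had 39.2, 44.3 and 40.9 TPM at low and 43.2, 42.9 and 39.6 TPM at high extinction. In both sexes the low-extinction libraries lay within or across the range of the high-extinction ones. The change was -0.03 in males (95% interval -0.22 to 0.16) and -0.02 in females (-0.19 to 0.15).

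Gabra4, the alpha subunit that pairs with delta in dentate granule cells, was the only one of the 7 whose low and high libraries did not overlap, and only in females. Low-extinction females had 60.4, 67.7 and 63.3 TPM, against 57.2, 59.4 and 59.3 TPM in high-extinction females. The gap between the lowest of the first group and the highest of the second was about 1 TPM. Of all genes, 16.3% were separated in females, 14.3% toward higher and 1.98% toward lower levels at low extinction, so 1 of 7 is near the background. The change was 0.12 in females (95% interval -0.03 to 0.27, limma adjusted p = 0.616). The summed level of 12 thalamus and habenula markers, a neighbouring tissue, was 117 to 141 TPM in low-extinction females, against 84.7 to 100.7 TPM in high-extinction females. The 7 meningeal markers were separated in the same females, at 88.4 to 110.3 against 65.1 to 72.0 TPM. None of these markers was at 0 in all libraries. The sums of the other marker lists overlapped in females. The part of these tissues in the Gabra4 levels was not tested. Males had 53.7, 55.7 and 60.1 TPM at low extinction, against 54.4, 53.6 and 62.9 TPM at high extinction, with the low-extinction range inside the high-extinction one and a change of -0.01 (-0.23 to 0.21). In males 0 of 7 transcripts were separated in either direction, beside 11.5% of all genes (4.2% higher and 7.28% lower at low extinction).

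Gabra5, the alpha subunit of tonic inhibition in pyramidal cells, was at 122, 126 and 122 TPM in low-extinction males, against 124, 119 and 167 TPM in high-extinction males. The high-extinction male at 167 TPM stood above all other libraries. That library, replicate 3, also had the largest summed level of the 6 CA3 markers, 243 TPM beside 166 to 217 TPM in the other 11 libraries. It was not the highest for the 6 CA1 markers (298 TPM, highest library 343) or the 8 dentate granule cell markers (310 TPM, highest 325). Its share of ribosomal RNA-derived transcripts, 7.14%, was the lowest among the males. The part of these in the Gabra5 level was not tested. Low-extinction females had 108, 154 and 148 TPM, against 126, 127 and 149 TPM in high-extinction females, so the low-extinction group reached both below and above the high-extinction one. The change was -0.13 in males (95% interval -0.43 to 0.18) and 0.01 in females (-0.33 to 0.36).

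Gabrb1, a beta subunit also expressed by glia in mouse brain, lay at 52.9, 52.6 and 49.1 TPM in low-extinction males, against 59.5, 42.9 and 61.9 TPM in high-extinction males. All 3 low-extinction males fell inside the range of the high-extinction males. Low-extinction females had 56.9, 62.5 and 60.9 TPM, against 54.7, 57.6 and 53.7 TPM in high-extinction females, a difference in the same direction as that of its neighbour Gabra4 but with overlap. The change was -0.07 in males (95% interval -0.40 to 0.26) and 0.12 in females (-0.03 to 0.27, limma adjusted p = 0.616).

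Gabrb2, the beta subunit of the most common synaptic receptors, was at 68.9, 72.7 and 66.5 TPM in low-extinction males, against 71.8, 64.1 and 73.8 TPM in high-extinction males. Females had 82.7, 83.3 and 79.3 TPM at low and 75.5, 84.7 and 78.2 TPM at high extinction. Low-extinction libraries fell inside the range of the high-extinction ones in both sexes. The change was -0.01 in males (95% interval -0.21 to 0.19) and 0.04 in females (-0.11 to 0.19).

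Gabrd, the delta subunit of extrasynaptic receptors, had 15.1, 19.7 and 19.8 TPM in low-extinction males, against 16.4, 25.6 and 16.0 TPM in high-extinction males. The high-extinction male at 25.6 TPM, replicate 2, was the highest of all 12 libraries. Low-extinction females had 19.8, 18.9 and 18.2 TPM, against 19.9, 17.2 and 18.7 TPM in high-extinction females, with overlap in both sexes. The change was -0.06 in males (95% interval -0.51 to 0.40) and 0.03 in females (-0.16 to 0.22).

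Taken over the 7 transcripts, the median log2 change was -0.06 in males, where the median of all genes was -0.02, and 0.04 in females, where it was 0.06. All 7 estimates were below 0 in males, but with size factors in place of TPM scaling Gabra4 and Gabrb2 turned to 0.02. In females 6 of 7 were above 0, but with size factors Gabra5, Gabrb2 and Gabrd turned to -0.06, -0.03 and -0.04. In the authors' deposited table, 3 of the 7 were higher and 4 lower at low extinction in males, and 4 were higher and 3 lower in females. None of these directions is therefore a call.

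The authors' deposited table gives the same comparisons on counts, with folds near 1 for all 7 transcripts in both sexes. In the authors' deposited table, the low-over-high folds in males ran from 0.966 for Gabra5 to 1.05 for Gabra2. The widest 95% interval there was that of Gabrd, 0.794 to 1.19, and the others lay between 0.865 and 1.21. In females the folds in the authors' deposited table ran from 0.931 for Gabra3 (95% interval 0.847 to 1.02, DESeq2 adjusted p = 0.672) to 1.05 for Gabra2 (0.970 to 1.13). Gabra4, separated by TPM in females, had a fold of 1.04 in the authors' deposited table (0.954 to 1.13, DESeq2 adjusted p = 0.871). The intervals from the authors' deposited table are normal intervals and those of limma are t intervals, so their widths are not directly comparable. The unmoderated standard error on TPM was larger than the one in the authors' deposited table in 8 of 14 cases and smaller in 6. A p above the threshold does not show equal levels, and these intervals give the sizes the data allow.

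**Figure D2:**
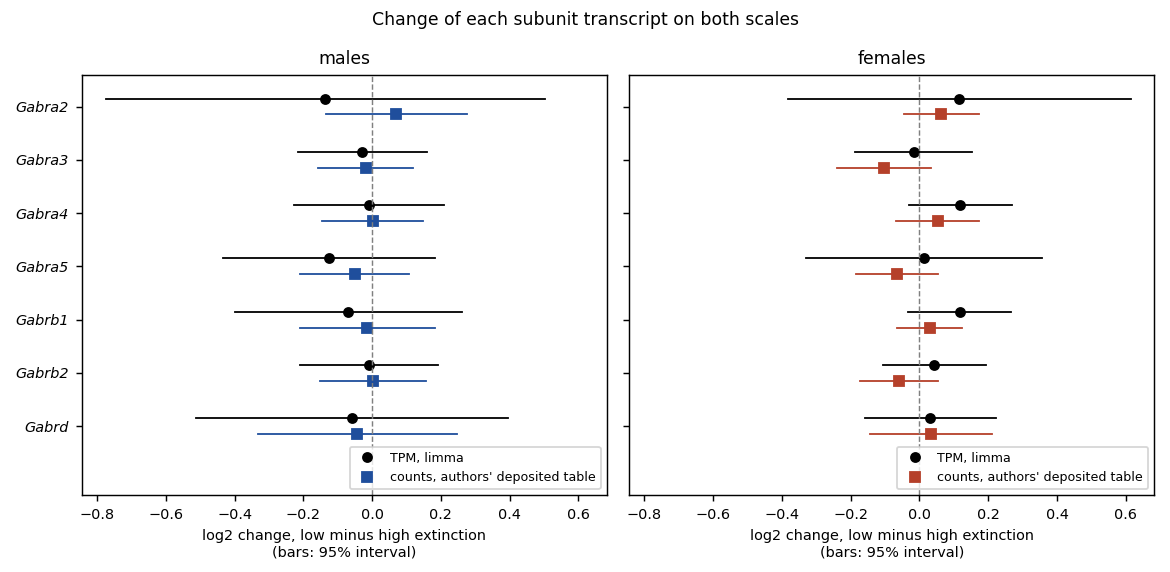
Log2 change of each subunit transcript, low minus high extinction, in males (left) and females (right), from TPM with limma (circles) and from counts in the authors' deposited DESeq2 table (squares), with 95% intervals (t intervals for limma, normal intervals for the deposited table). Every interval includes 0. The interval on TPM is the wider one for every gene in both sexes, but t and normal intervals are not directly comparable in width.

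The change did not pass the test for a difference between the sexes in any of the 7. The interaction, the male change minus the female change, ran from -0.25 for Gabra2 (95% interval -1.10 to 0.60) to -0.01 for Gabra3 (-0.23 to 0.21). Of the 7, 0 passed by limma adjusted p, beside 0.00541% of 18499 genes, and 0 at an unadjusted limma p under 0.05, beside 7.92%. The smallest limma adjusted p was 0.796, for Gabra4, whose interaction was -0.13 (-0.37 to 0.11). From the authors' deposited tables the male minus female differences ran from -0.08 for Gabrd (95% interval -0.42 to 0.26) to 0.08 for Gabra3 (-0.11 to 0.28). Averaged over the sexes, the changes lay between -0.06 for Gabra5 and 0.05 for Gabra4, with 0 of 7 called by limma (0% of all genes) and 0 of 7 at an unadjusted limma p under 0.05 (7.7% of all genes).

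Gabra2 stood out by the spread of its TPM between mice of the same group. Its pooled within-group SD was 0.39 on the log2 scale, larger than that of 95.6% of the 10656 genes averaging 10 TPM or more, whose median was 0.126. In order of level, 5 libraries lay between 39.96 and 46.3 TPM and the other 7 between 57.6 and 77.6 TPM, and each of the 4 groups had libraries in both ranges. In the authors' deposited table, by contrast, the standard error of the Gabra2 log2 fold was 0.10 in males and 0.06 in females. The unmoderated standard error from log2(TPM + 1) was 3.46 times that in males and 4.84 times that in females, where the median gene had 1.10 and 1.04 times. Gabra5 had ratios of 1.90 in males and 2.97 in females, and the other 5 between 0.741 and 1.69. The cause of the gap between TPM and counts for Gabra2 was not tested. Gabra3, Gabrb2 and Gabra4 were among the steadier genes, with pooled SDs of 0.07, 0.08 and 0.09, larger than those of 9.58%, 12.3% and 18.9% of genes.

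**Figure D3:**
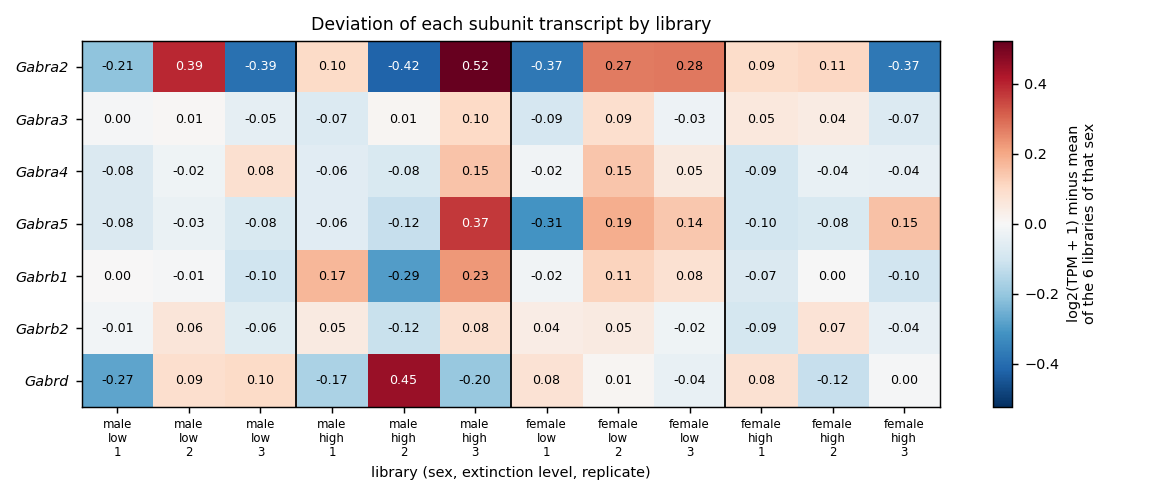
Deviation of each subunit transcript in each library from the mean of its sex, as log2(TPM + 1), with libraries grouped by sex and extinction level. Gabra2 alternates between high and low libraries inside each group, and replicate 2 of the high-extinction males combines the highest Gabrd (0.45) with the lowest Gabra2 (-0.42), Gabrb1 (-0.29) and Gabrb2 (-0.12).

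Over the 12 libraries, with each sex centred on its own mean, the levels of the 2 beta subunits went together, and those of delta ran opposite to Gabrb1. The following correlations describe 12 libraries that share the constraint of a fixed TPM total, and no p is given. Among 21 pairs the median Pearson r was 0.41, with 15 above 0 and 6 below, and all 6 below 0 were the pairs with Gabrd. Gabrb1 with Gabrb2 had r = 0.78 and Spearman rho = 0.75, and r = 0.59 without the 2 libraries farthest from the median of Gabrb1. Gabrb1 with Gabrd had r = -0.78 and rho = -0.78, and r = -0.45 without the 2 farthest libraries. For the chromosome 5 neighbours shown above, Gabra2 with Gabrb1 had r = 0.74 and rho = 0.80 (r = 0.65 without the 2 libraries farthest by Gabra2). The unmoderated standard error of Gabra2 on TPM was 3.46 times that in the authors' deposited table in males and 4.84 times in females. Whether this r would hold on counts was not tested. The head-to-head pair Gabra4 and Gabrb1 had r = 0.53 and rho = 0.43, and r = 0.15 without the 2 libraries farthest by Gabra4. Leaving out 1 library at a time gave r from 0.35 to 0.68 for this pair. Dropping the farthest libraries also narrows the range of the gene they were picked by, so a lower r alone does not show what a relation rests on.

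Replicate 2 of the high-extinction males weighs on these pairs. Without it, r was -0.57 for Gabrb1 with Gabrd and 0.68 for Gabrb1 with Gabrb2. Gabra4 with Gabrd had r = -0.18 over the 12 libraries, 0.05 without that library and 0.0081 without the 2 libraries farthest by Gabra4. Gabra3 with Gabrd had r = -0.09, -0.20 without that library, and up to 0.10 on leaving out another single library. For this pair r was 0.17 without the 2 libraries farthest by Gabra3. The sign of these weak relations therefore depends on single libraries. Replicate 2 of the high-extinction males had the largest summed level of the 6 oligodendrocyte markers, 3877 TPM beside 2188 to 3430 TPM in the other 11. For the 8 choroid plexus markers it was also highest, at 3472 TPM beside 22.8 to 3042 TPM in the other 11. The 6 striatal markers summed to 101.5 TPM in it, beside 56.7 to 91.4 TPM in the other 11. None of these markers was at 0 in all libraries. The part of these tissues in the subunit levels was not tested.

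**Figure D4:**
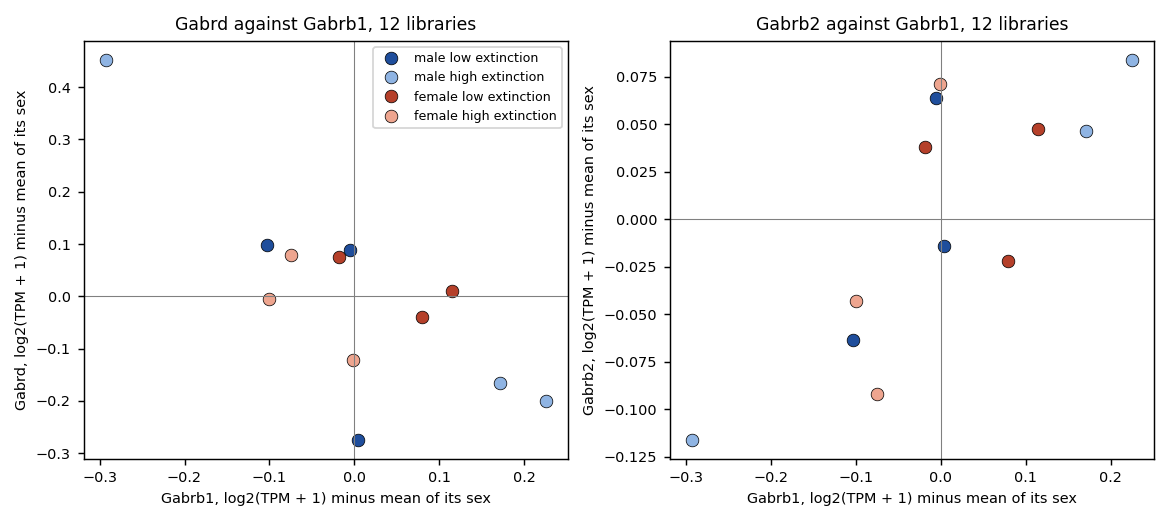
Deviation from the mean of its sex, log2(TPM + 1), of Gabrd (left) and Gabrb2 (right) against Gabrb1, 1 point per library and 12 libraries. Gabrd runs opposite to Gabrb1 and Gabrb2 runs with it, and 1 high-extinction male lies at the far left of both panels.

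The genes most like each subunit were the 3 with the highest Pearson r over the same 12 centred libraries among 12920 genes averaging 5 TPM or more in both sexes. They are the extremes of many correlations and are given as a description. For Gabra2 they were Yod1 (r = 0.89), Cdh11 (0.88) and Shoc2 (0.87). Its standard errors on TPM were well above those on counts, as given above, and likeness on counts was not tested. For Gabra3 they were Slc2a3, the neuronal glucose transporter (r = 0.92), Klhdc2 (0.92) and the pseudogene Apoo-ps (0.90), and for Gabra4 Zfp322a (0.93), Armc8 (0.92) and Gm5643 (0.92). Gabra5 was most like Brinp2 (r = 0.94), the kinesin motor Kif3b (0.93) and the guidance molecule Sema3e (0.91). Gabrb1 was most like Nkain3 (r = 0.96), the kinase anchor Akap11 (0.95) and Pclo, the presynaptic scaffold piccolo (0.93), and Gabrb2 most like Lrch2 (0.93), Ankrd6 (0.90) and Gm20689 (0.89). Gabrd was most like the transcription factor Tshz3 (r = 0.95), Olfml1 (0.95) and the lactate dehydrogenase gene Ldhb (0.95). No subunit was among the 3 genes most like another.

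Gabra3 was higher in every female than in every male library. The male and female tables were made separately, so levels across them are described without a test. Gabra3 lay between 39.2 and 44.3 TPM in the 6 females, against 32.96 to 37.4 TPM in the 6 males, a ratio of means of 1.199. The log2 difference, female minus male, was 0.26, above that of 90.8% of genes, where the median of all genes was 0.08. Rescaled without ribosomal RNA-derived genes the ranges stayed apart, at 42.5 to 47.7 TPM in females and 37.0 to 40.3 TPM in males. Gabrb2 lay between 75.5 and 84.7 TPM in females, against 64.1 to 73.8 TPM in males, but after the same rescaling its ranges overlapped, at 81.0 to 93.1 TPM in females and 70.2 to 84.5 TPM in males. Thus 2 of 7 subunits were higher in all females on TPM as deposited, beside 1.37% of all genes, and 1 of 7 after rescaling, beside 0.789%. In neither case was any of the 7 lower in all females, as 0.0595% of genes were on TPM as deposited and 0.114% after rescaling. The other 5 overlapped between the sexes, with Gabrd at 18.8 ± 1.03 TPM in females and 18.8 ± 3.91 TPM in males (SD, n = 6 each).

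**Figure D5:**
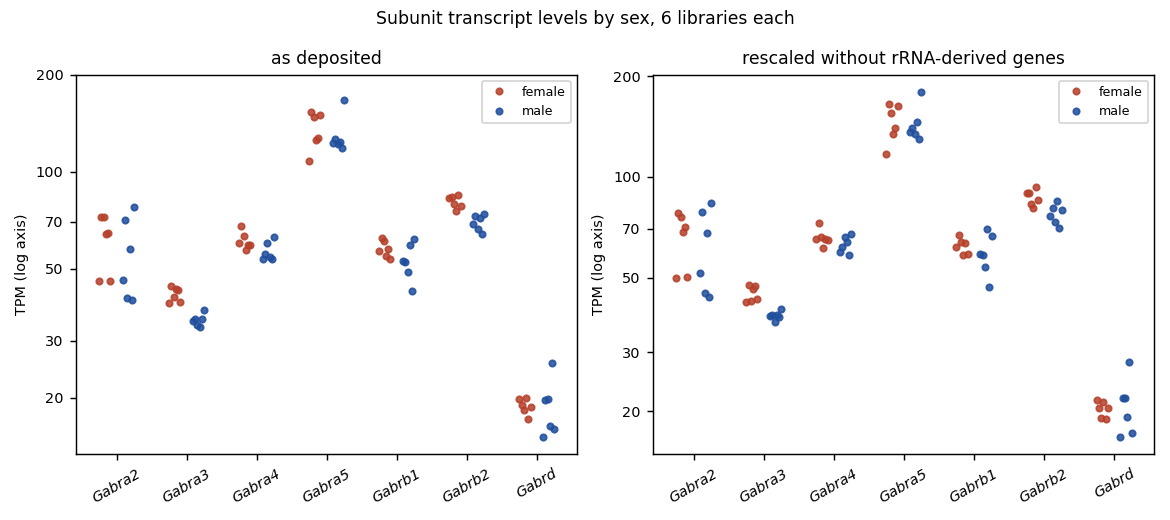
TPM (log axis) of the 7 subunit transcripts in 6 female and 6 male libraries, as deposited (left) and rescaled without ribosomal RNA-derived genes (right). The Gabra3 points of the sexes are apart in both panels and those of Gabrb2 only in the left panel.

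In the rest of the GABA system, calls came only from the authors' deposited table. Limma called 0 genes in any of 6 lists in either sex, on average or for the interaction: 6 tested of 12 other GABA-A subunits, 9 genes of GABA synthesis, uptake and breakdown (8 tested in males), 6 GABA-B receptor genes, 26 genes of the inhibitory synapse and receptor trafficking, 9 chloride transporters and their kinases, and 5 neurosteroid enzymes (4 tested in males). At an unadjusted limma p under 0.05 there were 0 genes in any of these lists in males. In females there were 1, 2, 0, 4, 2 and 0 in the same order of lists, on average 0, 0, 0, 1, 1 and 0, and for the interaction 0, 1, 1, 3, 0 and 1. The share of all tested genes past that unadjusted threshold was 7.92% for the interaction, 7.7% averaged across sexes, 8.83% for females and 6.29% for males. The median log2 change of the other GABA-A subunits was 0.00 in males, beside -0.02 for all genes, and 0.10 in females, beside 0.06.

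The authors' deposited table called 2 genes of these lists, both GABA transporters and both higher at low extinction in females. They were 2 of the 9 genes tested for GABA synthesis, uptake and breakdown, beside 0.857% of all genes called in females. That percentage is over 15644 genes not picked by mean TPM, whereas list genes had to average 1 TPM or more. The 2 figures are therefore not directly comparable, and enrichment of the list was not tested. The other lists had no call in the authors' deposited table in either sex. Slc6a13, which encodes GAT2, a transporter of the meninges and liver, was at 11.3, 8.32 and 13.2 TPM in low-extinction females, against 5.45, 3.93 and 5.57 TPM in high-extinction females, with no overlap. Its log2 fold in the authors' deposited table was 1.02 (SE 0.18, DESeq2 adjusted p = 2.8e-05). In males Slc6a13 had 4.44, 2.20 and 3.73 TPM at low and 7.79, 4.60 and 4.45 TPM at high extinction, and the authors' deposited table gave a log2 fold of -0.75 (SE 0.27, DESeq2 adjusted p = 0.283). The interaction of Slc6a13 on TPM was -1.56 and had a limma adjusted p of 0.381. Slc6a12, which encodes the betaine and GABA transporter BGT1, was at 3.78, 1.05 and 1.90 TPM in low-extinction females, against 0.915, 0.312 and 0.867 TPM in high-extinction females, with a log2 fold of 1.41 in the authors' deposited table (SE 0.36, DESeq2 adjusted p = 0.0161). Slc6a12 passed the filter on low values in females with group means of 2.24 TPM (low extinction) and 0.698 TPM (high extinction). It did not pass in males. Slc6a13 is also one of the 7 meningeal markers used here. Their sum, which includes Slc6a13 itself, was 88.4 to 110.3 TPM in low-extinction females, against 65.1 to 72.0 TPM in high-extinction females. In males the sums overlapped, at 39.5 to 72.0 TPM at low and 50.6 to 85.8 TPM at high extinction. None of these markers was at 0 in all libraries, and the part of meningeal tissue in these differences was not tested.

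In the lists without a call, genes with the smallest p on average over the sexes are named. Among the synapse genes this was Gabarapl2, which encodes an autophagy and trafficking protein. It lay at 46.8, 45.1 and 4.59 TPM in low-extinction males, against 53.6, 55.3 and 55.1 TPM in high-extinction males. In females it lay at 7.73, 0.18 and 57.5 TPM at low extinction, against 47.5, 53.4 and 54.6 TPM at high extinction. Thus 3 of the 6 low-extinction libraries were far below all others on TPM, while the authors' deposited tables gave folds of 0.942 in males and 0.955 in females, and the cause of that gap was not tested. Gabarapl2 had a log2 change of -1.956 on average (limma adjusted p = 0.594).

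Among chloride transporters the chloride channel Clcn2 had a log2 change of 0.14 on average (limma adjusted p = 0.657). Among GABA-B receptor genes the 2 with the smallest p were the auxiliary subunit Kctd12b at -0.09 (limma adjusted p = 0.856) and the receptor subunit Gabbr1 at 0.02 (limma adjusted p = 0.970). Among neurosteroid enzymes the 2 were Srd5a1, a steroid reductase of allopregnanolone synthesis, at -0.20 (limma adjusted p = 0.685), and the cholesterol carrier Star at 0.08 (limma adjusted p = 0.895).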

How the data were processed

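Per the labels' protocols, polyadenylated RNA was enriched from 1 µg of hippocampal total RNA and made into libraries with the Kapa mRNA Hyper Prep kit. The tools in the submitters' processing notes are StringTie 1.3.3b, TopHat2, Bowtie2, HTSeq and the authors' DESeq2, and the builds are GRCm38.p5 and mm10. Their roles, and any use of strand in counting, are not given in the sources used here. For each sex, the authors deposited a TPM table, in which every library sums to the same total. A second deposited table per sex holds, per the file headers, the authors' DESeq2 results: the mean normalized counts (a signal), the log2 fold change and its standard error, the Wald statistic (a score), and p-values, raw and adjusted. The direction of that log2 fold is not named. It correlated across genes with the TPM change, low minus high extinction, at -0.58 in males and -0.46 in females, and was multiplied by -1.

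Columns were matched to mice through the mouse names given by the labels. Replicate numbers follow record order. Values were tested as log2(TPM + 1), a scale on which low genes change less than on TPM, with limma 3.58.1 (R 4.3.3) with a mean-variance trend, for genes averaging 1 TPM or more. Each sex was fitted alone, and all 12 libraries together gave the average and the interaction. This step was first run on simulated data with known changes. Standard errors from TPM that are set beside the authors' are unmoderated, and intervals of the authors' folds are 95% normal intervals from the deposited standard errors. Named are the 7 members, the list genes called or, where a list has no call, the 2 with the smallest p on average, and 3 most-alike genes per member. The other GABA-A subunits are given by counts. Some genes this rule names are not reported here. Members and lists were chosen with earlier results of these data known. Gene positions are from GENCODE M21, in which 52403 of 52636 identifiers were found, and upstream sequences are from RefSeq (GRCm38.p6). Alternatives were other pseudocounts, filters, scalings (size factors, or without ribosomal RNA-derived genes) and variance settings, a joint fit and leaving out each library. Rescaling the levels by sex and leaving libraries out of the correlations were chosen after seeing the data. Figures used Python 3.11.15 with matplotlib 3.10.9.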

Additional observations from a re-analysis of the deposited data

How the results depend on the processing

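The 28 subunit changes (7 genes, 4 comparisons) were recomputed under the alternatives, which gave 490 values. Of these, 0 passed limma's adjusted threshold (smallest adjusted p = 0.487), 433 had the direction of the main fit and 57 the opposite one. The filters, the variance settings and the joint fit leave the estimate itself unchanged. They could not turn its direction, and their values are part of the 433. With size factors the change turned to 0.017 for Gabra4 and 0.017 for Gabrb2 in males, to -0.058 for Gabra5, -0.029 for Gabrb2 and -0.036 for Gabrd in females, to -0.0058 for Gabrb2 on average, and to 0.085 for Gabra3, 0.045 for Gabrb2 and 0.0033 for Gabrd in the interaction. Without ribosomal RNA-derived genes it turned to -0.012 for Gabra5 in females, to -0.0012 for Gabrb2 on average and to 0.0039 for Gabra3 in the interaction. The cause was not tested.

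Leaving out single libraries turned the direction of the following changes. In males it gave -0.38 to 0.091 for Gabra2, -0.072 to 0.017 for Gabra3, -0.054 to 0.063 for Gabra4, -0.22 to 0.026 for Gabra5, -0.23 to 0.026 for Gabrb1, -0.070 to 0.030 for Gabrb2 and -0.17 to 0.15 for Gabrd. In females it gave -0.043 to 0.33 for Gabra2, -0.065 to 0.021 for Gabra3, -0.079 to 0.17 for Gabra5 and -0.021 to 0.079 for Gabrd. On average it gave -0.13 to 0.10 for Gabra2, -0.10 to 0.023 for Gabra5, -0.058 to 0.072 for Gabrb1, -0.014 to 0.040 for Gabrb2 and -0.070 to 0.093 for Gabrd. For the interaction it gave -0.055 to 0.036 for Gabra3, -0.30 to 0.012 for Gabra5 and -0.20 to 0.12 for Gabrd. The others kept their direction: in females 0.075 to 0.16 for Gabra4, 0.089 to 0.16 for Gabrb1 and 0.0073 to 0.089 for Gabrb2, on average -0.047 to -0.00031 for Gabra3 and 0.032 to 0.091 for Gabra4, and for the interaction -0.49 to -0.024 for Gabra2, -0.17 to -0.055 for Gabra4, -0.35 to -0.091 for Gabrb1 and -0.11 to -0.012 for Gabrb2.

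Over all genes, limma called 0 in males, 1 with both sexes in 1 fit, and 2 to 6 without single libraries. In females it called 2, but 1 with no filter, 4 at a mean of at least 5 TPM, 4 with robust variances, 0 with both sexes in 1 fit, and 4 to 10 without single libraries. On average it called 0 (0 to 3 without single libraries), and for the interaction 1, but 2 with no filter, 2 without a trend and 1 to 4 without single libraries. No paired analysis was possible because the labels give no replicate numbers shared between groups. Depth per library is unknown, and 3 mice per group limit what size of change can be seen.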
